A study of Mus musculus with 12 samples.

Results

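Splicing regulators are the proteins that choose which exons and introns are joined in a messenger RNA. Here they were taken as the protein-coding genes whose symbols belong to 11 classes, which were the SR proteins (Srsf genes with Tra2a and Tra2b), the SR-related matrix proteins (Srrm1 to Srrm4), factors of the branch point and 3' splice site (Sf3a and Sf3b genes with U2af1 and U2af2), the hnRNP proteins with Sfpq, and the PTB, STAR, RBFOX, NOVA, MBNL, CELF and ELAVL proteins. A mean of at least 50 normalized counts, which are reads divided by the size factor of the library, was also required over the 12 libraries. The rule gave 73 genes of the 46078 gene IDs in the table. Of 76 IDs with a matching symbol, Mbnl3 was left out with a mean of 5.80 normalized counts, and the pseudogenes Hnrnpa1l2-ps2 and Hnrnpa1l2-ps with 0.498 and 0.307, while the lowest gene that was kept, Khdrbs2, had a mean of 209 normalized counts. All 73 were among the 17496 genes that reached the level needed for testing.

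Hippocampal RNA was taken at postnatal day 25 from mice of the C57BL/6 strain. Mutant males and mutant females were heterozygous for the Chd8 allele Asn2373LysfsX2, a frameshift, and were set against wild-type males and wild-type females of the same strain and age. Each of the 4 groups held 3 libraries, and nothing in the labels says whether each stands for its own animal. The p-values therefore speak of library-to-library spread, part of which may be technical.

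Most genes of the brain are spliced in more than one way. SR proteins bind exonic sequences and usually favour inclusion of the exon, many hnRNP proteins oppose it, and the SF3 and U2AF factors recognise the branch point and the 3' splice site in every cell. RBFOX, NOVA, CELF, ELAVL, MBNL, PTB and STAR proteins add choices that differ between cell types: Rbfox3 is the antigen known as NeuN of mature neurons, the switch between Ptbp1 and its neural relative Ptbp2 accompanies neuronal differentiation, and Qk, or quaking, serves oligodendrocytes and astrocytes. CHD8 is an ATP-dependent chromatin remodeller that binds many promoters, and its loss of function in people is a known cause of autism.

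Depth, as reads recovered from the deposited values, was 23721482 to 24654408 in mutants and 26912998 to 33327314 in wild types. Every mutant library was thus shallower than every wild-type library, and depth and genotype cannot be told apart. Chd8 itself had 2383 to 2513 normalized counts in mutant libraries, against 2751 to 2994 in wild-type libraries, a log2 fold change, mutant over wild type, of -0.22 ± 0.03 (SE, limma adjusted p = 0.0289). The 3 libraries mutant male 2, mutant male 3 and wild-type female 1 stood apart by their low markers of choroid plexus, the secretory tissue of the ventricles, with mean log2 scores of 5.53, 5.84 and 5.23, while the other 9 libraries scored 9.54 to 11.28. The 8 markers of myelinating oligodendrocytes summed to 312389 to 433309 normalized counts in mutant libraries and 396557 to 506908 in wild-type libraries, and none was at 0 in any library. In bulk tissue, fewer cells of a type and less RNA per cell cannot be told apart.

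The 73 genes were abundant as a group, with a median of 3225 normalized counts, against 465 over all genes tested. Per kb of exon, which allows a rough comparison of levels of different genes, their levels ranged widely, with a median of 552 normalized counts. The exon length merged the exons of all annotated transcripts, those with retained introns included. It can therefore exceed the length of the forms expressed, by an amount that differs between genes. The highest level was that of Rbfox1, a neuronal regulator, at 2276 normalized counts per kb, followed by Hnrnpa2b1 at 2087, the spliceosomal scaffold protein gene Srrm2 at 2080, Srsf5 at 1956 and Hnrnpa1 at 1917. The lowest was Khdrbs2, the gene of the STAR protein SLM1, at 20.3 normalized counts per kb, whereas its relative Khdrbs3 reached 944.

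**Figure D1:**
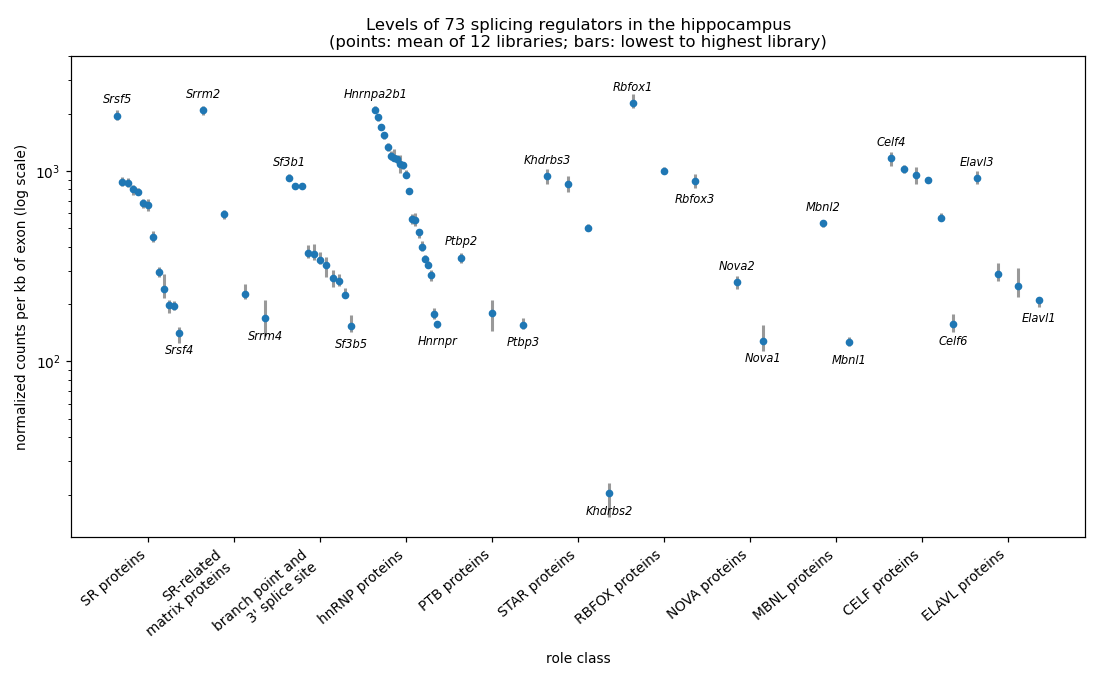
Levels of the 73 splicing regulators by role class, in normalized counts per kb of exon on a log scale. Points are means of 12 libraries and bars run from the lowest to the highest library. Rbfox1 lies at 2276 and Khdrbs2 at 20.3, and the bars are short for most genes, with a median ratio of highest to lowest library of 1.13.

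Levels also differed within each class. The SR proteins ran from 1956 normalized counts per kb for Srsf5 to 141 for Srsf4, the branch point and 3' splice site factors from 918 for Sf3b1, the subunit that holds the branch point, to 153 for Sf3b5, and the hnRNP proteins from 2087 for Hnrnpa2b1 to 158 for Hnrnpr. The neuron-restricted Elavl3 had 917 per kb and the ubiquitous Elavl1, also called HuR, had 209.5. Rbfox3 had 882 and Rbfox2 had 996, Celf4 had 1168 and Celf6 had 158, and Mbnl2 had 533 and Mbnl1 had 126. Ptbp2, the neural PTB protein, had 352 per kb, above Ptbp1 at 180.0 and Ptbp3 at 155. The ratio of Ptbp2 to Ptbp1 per kb was 1.69 to 2.18 in mutant libraries and 1.70 to 2.47 in wild-type libraries, so the 2 genotypes overlapped.

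None of the 73 genes passed an adjusted p of 0.05 in the genotype comparison averaged over both sexes, by limma, edgeR or DESeq2. Over all genes limma called 1 gene, Chd8, which is 0.00572% of those tested. At an unadjusted p under 0.05 there were 7 regulators, 3 higher in mutants (Hnrnpa0, Hnrnpab and Sf3b4) and 4 lower (Qk, Hnrnpm, Srsf6 and Nova1), where 8.87% of all genes passed the same mark, 4.4% higher and 4.47% lower. The members' count is close to that share of 73 genes. DESeq2 called 75 genes, 0.588% of those it gave an adjusted p. The median log2 fold change of the regulators was 0.01, with 39 above 0 and 34 below, against a median of -0.00 over all genes, of which 49.9% lay above 0. For 0 of the 73 did all 6 mutant libraries lie on one side of all 6 wild-type libraries, where 0.303% of all genes were wholly higher and 0.24% wholly lower in mutants.

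The intervals of these differences were narrow. The 95% interval of the averaged difference lay within 20% either way, as a fold, for 73 of 73 genes and within 10% for 52. Fold changes ran from -0.12 to 0.13 on the log2 scale, and 69 of 73 were smaller than 0.1. Within one sex the intervals were wider: 65 genes in males and 66 in females lay within 20%, 36 and 40 within 10%. All these intervals are per gene and not adjusted for the number of genes. Where an interval includes 0, the difference cannot be told from 0 with these libraries. The averaged intervals exclude 0 for the 7 regulators at an unadjusted limma p under 0.05, none of which passed after adjustment.

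**Figure D2:**
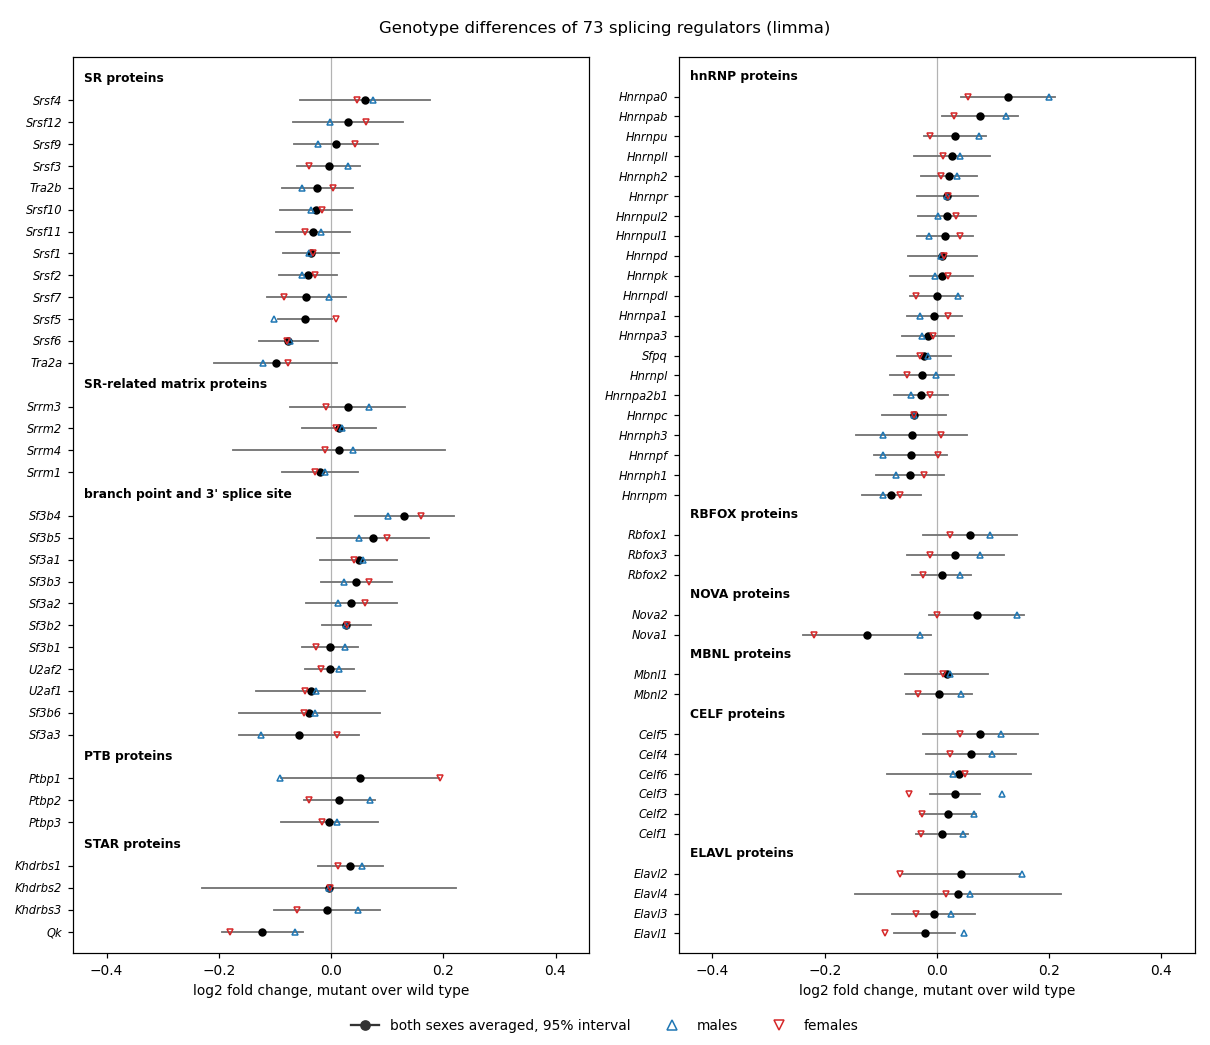
Log2 fold change, mutant over wild type, of each splicing regulator by role class. Black points with bars are the averages of both sexes with 95% intervals, and open triangles are males (upward) and females (downward). The black points lie between -0.12 and 0.13, and the triangles of Ptbp1 lie on opposite sides of 0, at -0.09 in males and 0.19 in females.

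The regulators also varied little between libraries of one group. Their residual SD had a median of 0.05 log2 units, against 0.11 over all genes tested and 0.06 for the 3425 other genes whose level lay within the interquartile range of the regulators (1536 to 6044 normalized counts). These other genes had a median level of 2539 normalized counts, against 3225 for the regulators. Levels were thus not fully matched, and the part of level in this small gap was not tested. The ratio of the highest to the lowest of the 12 libraries had a median of 1.13 and was under 1.5 for 72 of the 73 genes. The exception was Srrm4, the neuronal regulator of microexons, with a ratio of 1.54. The steadiest was U2af2, which binds the polypyrimidine tract, with a residual SD of 0.018, and the least steady was Khdrbs2, with 0.196 and as few as 154 reads in a library.

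**Figure D3:**
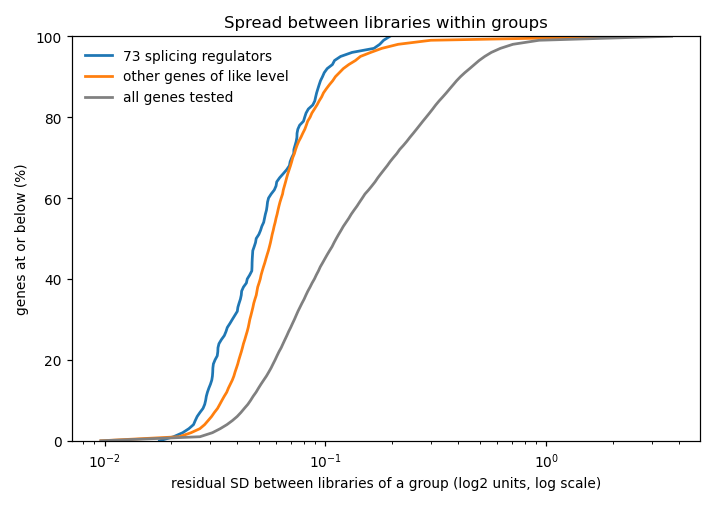
Cumulative share of genes (%) by residual SD between libraries of a group, in log2 units on a log axis. The 73 splicing regulators (median 0.05) have a smaller median than other genes of like level (median 0.06) and all genes tested (median 0.11). The genes of like level are those within the regulators' interquartile range, and their median level is below that of the regulators.

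Among the SR proteins, 10 of 13 had an averaged fold change below 0, with a median of -0.03, where 50.1% of all genes lay below 0. Both scalings tried in place of the deposited one also gave 10 of 13, leaving out 1 library at a time gave 9 to 11, and leaving out the 3 libraries low in choroid plexus markers gave 8. Summed over the class, SR protein genes had 38118 to 39340 normalized counts in mutant males, against 39580 to 40730 in wild-type males. In females they had 37471 to 38499 in mutants, against 38543 to 38916 in wild types. By this sum, which abundant genes dominate, mutant libraries lay below wild-type libraries of their own sex, while the pooled genotypes overlapped. Sums of the CELF, RBFOX, NOVA and MBNL classes also did not overlap in males, with mutants higher. The sum of the STAR class did not overlap in females, with mutants lower. How often sums of other gene sets separate was not computed. By the mean of log2 values of the SR class, which weights each gene equally, females again did not overlap but males did, with 11.16 to 11.17 in mutant males and 11.17 to 11.23 in wild-type males. No single SR gene passed the adjusted threshold. Other lists lay below 0 in the same comparison: all 8 myelinating oligodendrocyte markers, with a median of -0.23, and all 7 nuclear-retained RNAs, such as Malat1 and Meg3, with a median of -0.07. So did all 8 choroid plexus markers, with a median of -0.95, and all 4 of ependyma, with -0.35. Markers of pyramidal neurons (5), endothelium (4) and fibroblasts (4) all lay above 0, with medians of 0.07, 0.09 and 0.66. The part of any of these lists in the SR values was not tested.

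Srsf6 (chromosome 2, 162931528 to 162937121), an activator of exon inclusion, had 4059, 4304 and 4056 normalized counts in mutant males, against 4483, 4321 and 4260 in wild-type males. In females it had 4052, 4150 and 4031 in mutants, against 4301, 4236 and 4385 in wild types. All 3 mutant females lay below all 3 wild-type females, and 1 mutant male lay among the wild-type males. The averaged log2 fold change was -0.08 ± 0.02 (SE, limma adjusted p = 0.393). Tra2a, which binds GAA-rich exonic enhancers, had 1530, 1620 and 1807 normalized counts in mutant males, against 1674, 1988 and 1729 in wild-type males. Mutant females had 1503, 1590 and 1596, against 1694, 1679 and 1572 in wild-type females. The genotypes overlapped in both sexes, and the averaged log2 fold change was -0.10 ± 0.05 (limma adjusted p = 0.597). It was -0.06 without wild-type male 2.

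Srsf5 (chromosome 12, 80945504 to 80950507), the most abundant SR protein gene here, had a different pattern in the 2 sexes. Mutant males had 7582, 7811 and 7403 normalized counts, against 8091, 8334 and 8043 in wild-type males, with no overlap. Mutant females had 7595, 7866 and 7774, against 7665, 7605 and 7819 in wild-type females, which overlapped. The log2 fold change was -0.10 ± 0.03 in males (limma adjusted p = 0.41) and 0.01 ± 0.03 in females (adjusted p = 0.98). The difference between the sexes, tested directly, was -0.11 ± 0.04 and did not pass (limma adjusted p = 0.619). Of the SR-related matrix proteins, Srrm2 had 26135 to 28144 normalized counts in mutant libraries and 25310 to 28004 in wild-type libraries, and Srrm4 had 1406 to 1613 in mutant libraries and 1176 to 1816 in wild-type libraries. Srrm2, Srrm3 and Srrm4 had averaged fold changes of 0.01, 0.03 and 0.01, with 95% intervals of -0.05 to 0.08, -0.07 to 0.13 and -0.17 to 0.20.

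The branch point and 3' splice site factors split evenly, with 6 of 11 above 0 in the averaged comparison. Sf3b4 (chromosome 3, 96172332 to 96177564), a subunit of SF3B that holds the pre-mRNA near the branch point, stood at the top of the class. It had 833, 817 and 783 normalized counts in mutant males, against 736, 748 and 784 in wild-type males. Among females it had 787, 898 and 885 in mutants, against 755, 794 and 747 in wild types. Wild-type and mutant libraries overlapped by 1 library in each sex. The averaged log2 fold change was 0.13 ± 0.04 (limma adjusted p = 0.385), with 85 bases of its exons shared with an antisense gene that the unstranded libraries cannot separate. Sf3b1 had a fold change of -0.00, with an interval of -0.05 to 0.05.

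The hnRNP proteins also went both ways, with 10 of 21 above 0. Hnrnpm (chromosome 17, 33646233 to 33686860), whose protein binds GU-rich sequences and mostly represses exons, had 3044, 3248 and 3124 normalized counts in mutant males, against 3287, 3370 and 3407 in wild-type males. Female libraries had 3095, 3080 and 3018 in mutants, against 3183, 3287 and 3154 in wild types. In each sex the mutants were wholly below the wild types, which held for 1 of the 73 regulators and for 0.6% of all genes. The pooled genotypes overlapped, mutant males with wild-type females. The averaged log2 fold change was -0.08 ± 0.02 (limma adjusted p = 0.36), and -0.11 without the 3 libraries low in choroid plexus markers. Its exons share 1169 bases with March2 on the same strand.

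Hnrnpa0 (chromosome 13, 58125879 to 58128556), an intronless hnRNP gene, had 3160, 3207 and 2925 normalized counts in mutant males, against 2799, 2686 and 2604 in wild-type males. For females the counts were 3259, 2871 and 2844 in mutants, against 2834, 2846 and 2940 in wild types. Males did not overlap, while among females only 1 mutant library lay above the wild types. The log2 fold change was 0.20 ± 0.05 in males (limma adjusted p = 0.407) and 0.06 ± 0.05 in females (adjusted p = 0.904). Averaged it was 0.13 ± 0.04 (limma adjusted p = 0.378). Hnrnpab, which shares 809 exonic bases with an antisense gene, had 1669, 1557 and 1603 normalized counts in mutant males, against 1516, 1453 and 1461 in wild-type males. Mutant females had 1560, 1508 and 1564, against 1439, 1512 and 1587 in wild-type females. Males did not overlap and females did, and the averaged log2 fold change was 0.08 ± 0.03 (limma adjusted p = 0.491).

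Hnrnpc (chromosome 14, 52073377 to 52104028) is the regulator nearest to Chd8 on the genome, with 94.1 kb between the genes. Its averaged log2 fold change was -0.04 ± 0.03, with 4740 to 5174 normalized counts in mutant libraries and 4959 to 5234 in wild-type libraries (limma adjusted p = 0.678).

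The smallest p of all regulators in the averaged comparison was that of Qk (chromosome 17, 10202601 to 10319854), whose STAR protein binds quaking response elements and regulates splicing in glia. It had 11071, 11259 and 12693 normalized counts in mutant males, against 12145, 12050 and 12376 in wild-type males. In females it had 11466, 11988 and 11452 in mutants, against 13471, 12937 and 13122 in wild types. Females did not overlap, and among males only mutant male 3 was not below the wild-type range. The averaged log2 fold change was -0.12 ± 0.03, or 8.13% lower with a 95% interval of 12.6% to 3.42% lower (limma adjusted p = 0.341, 0.0766 with DESeq2 and 0.347 with edgeR). In females it was -0.18 ± 0.05 (limma adjusted p = 0.584) and in males -0.06 ± 0.05 (adjusted p = 0.676).

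Markers of myelinating oligodendrocytes, a cell type that uses Qk, were lower in mutants as well: 8 of 8 had an averaged fold change below 0, with a median of -0.23, none called by limma and 5 by DESeq2. Their summed level was 312389 to 404622 normalized counts in mutant males, against 396557 to 434033 in wild-type males. In females it was 376321 to 433309 in mutants, against 442847 to 506908 in wild types. Of 6 astrocyte markers, 5 had an averaged fold change above 0, with a median of 0.03. Markers of oligodendrocyte precursors split, 2 above and 2 below, with a median of -0.07. The part of these cell types in the value of Qk was not tested. The other STAR genes had averaged fold changes of 0.03 for Khdrbs1, -0.00 for Khdrbs2 and -0.01 for Khdrbs3.

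The promoters of the 3 genes with the smallest p for which the tables hold an entry are shown because a remodeller of promoters is the mutated protein and these are the windows such data would be set against. Each is the 250 bases before a transcription start as RefSeq places it, on GRCm38.p6, printed on the gene's strand. The gene coordinates given here are from GENCODE, and the annotations differ: the RefSeq start lies 493 bases inside the GENCODE gene for Qk and 1402 bases inside it for Hnrnpm, so both windows lie within those genes, while for Hnrnpa0 the starts are the same. Capitals mark matches on either strand to a GC box with the letters GGGCGG, to the CCAAT box, to a TATA box with the letters TATAAA, and to an ETS core with the letters CCGGAAG. The windows were searched for each motif and for its reverse complement. They lie at chr17:10319362-10319611 for Qk, chr17:33685459-33685708 for Hnrnpm and chr13:58128557-58128806 for Hnrnpa0, all on the minus strand.
Qk: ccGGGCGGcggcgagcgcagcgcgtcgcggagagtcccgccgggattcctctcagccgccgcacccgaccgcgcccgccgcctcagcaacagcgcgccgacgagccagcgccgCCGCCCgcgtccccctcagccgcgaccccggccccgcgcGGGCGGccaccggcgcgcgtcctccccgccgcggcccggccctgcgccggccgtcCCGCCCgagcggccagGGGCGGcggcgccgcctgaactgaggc
Hnrnpm: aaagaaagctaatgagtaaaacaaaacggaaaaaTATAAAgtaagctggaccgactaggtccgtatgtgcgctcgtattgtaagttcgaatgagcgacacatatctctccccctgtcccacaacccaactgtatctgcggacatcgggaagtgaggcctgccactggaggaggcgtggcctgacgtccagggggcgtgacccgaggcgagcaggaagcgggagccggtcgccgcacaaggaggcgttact
Hnrnpa0: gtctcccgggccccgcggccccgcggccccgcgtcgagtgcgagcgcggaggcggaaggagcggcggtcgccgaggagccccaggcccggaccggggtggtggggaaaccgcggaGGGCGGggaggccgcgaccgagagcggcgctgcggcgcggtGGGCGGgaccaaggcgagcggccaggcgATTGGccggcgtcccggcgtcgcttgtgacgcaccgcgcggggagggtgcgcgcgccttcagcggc
The Qk window is 84.8% G and C with 5 GC boxes, and the Hnrnpa0 window is 81.2% with 2 GC boxes and 1 CCAAT box. That of Hnrnpm, at 55.2%, has none of these but 1 TATA box.

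As a set the regulators had promoters rich in CpG. Promoters of 63 of the 73 genes were found, 103 windows in all, since a gene may have several starts. Their median content of G and C was 61.6%, against 52.4% over all 32851 windows, and their CpG ratio (observed over that given by base composition) was 0.818 against 0.374. A GC box was present in 62.1% of the regulators' windows and 32.7% of all windows, a CCAAT box in 48.5% and 33.8%, an ETS core in 15.5% and 6.91%, and a TATA box in 8.74% and 12.4%. These are matches of letters in windows of unlike base composition, and a match is not a site. The full set of windows came from 27025 genes, more than the 17496 tested, whereas every regulator had to pass a minimum level. Windows of other genes of like level were not compared, so whether these contrasts are particular to splicing regulators was not tested.

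The pair of NOVA proteins, neuronal regulators named for a neuro-oncological antigen, had averaged fold changes of opposite sign. Nova1 (chromosome 12, 46694517 to 46818929) had 1169, 1173 and 1036 normalized counts in mutant males, against 1129, 1178 and 1136 in wild-type males. Among females it had 1060, 1022 and 997 in mutants, against 1357, 1147 and 1095 in wild types. Females did not overlap, and males did. The log2 fold change was -0.22 ± 0.07 in females (limma adjusted p = 0.59) and -0.12 ± 0.05 averaged (adjusted p = 0.516). Wild-type female 1, a library low in choroid plexus markers, was the highest of the 12, and without that library the female value was -0.13 and the averaged value -0.08, and without all 3 such libraries the averaged value was -0.05.

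Nova2 (chromosome 7, 18925888 to 18965319) had 2284, 2327 and 2262 normalized counts in mutant males, against 2058, 2081 and 2088 in wild-type males, with no overlap. Female libraries had 2266, 2021 and 2310 in mutants, against 2352, 2186 and 2057 in wild types, which overlapped. The averaged log2 fold change was 0.07 ± 0.04 (limma adjusted p = 0.626). The ratio of Nova2 to Nova1 per kb was 2.04, 2.07 and 2.28 in mutant males, against 1.90, 1.85 and 1.92 in wild-type males. It was 2.23, 2.07 and 2.42 in mutant females, against 1.81, 1.99 and 1.96 in wild-type females. All 6 mutant libraries lay above all 6 wild-type libraries. This ratio was chosen after its values were seen and is given without a test. Among 35 ratios within 7 families it was the only one whose genotypes did not overlap, and among all 2628 ratios of 2 regulators 23 did not overlap, or 0.875%.

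The NOVA promoters differ in composition. The windows below are built and marked as above and lie at chr12:46818768-46819017 on the minus strand for Nova1 and at chr7:18925638-18925887 on the plus strand for Nova2. The RefSeq start lies 162 bases inside the GENCODE gene for Nova1 and coincides with its start for Nova2.
Nova1: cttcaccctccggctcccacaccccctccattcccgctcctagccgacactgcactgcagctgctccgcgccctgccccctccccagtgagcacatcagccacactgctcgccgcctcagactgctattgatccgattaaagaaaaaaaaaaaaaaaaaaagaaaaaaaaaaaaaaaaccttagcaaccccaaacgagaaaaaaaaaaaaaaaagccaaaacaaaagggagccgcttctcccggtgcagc
Nova2: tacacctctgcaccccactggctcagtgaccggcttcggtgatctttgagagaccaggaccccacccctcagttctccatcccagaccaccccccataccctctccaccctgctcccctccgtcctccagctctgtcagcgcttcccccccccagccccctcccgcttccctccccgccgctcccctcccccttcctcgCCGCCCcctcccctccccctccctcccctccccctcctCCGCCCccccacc
The Nova1 window has 11 CpG and none of these motifs. The Nova2 window is 71.2% G and C, with 10 CpG and 2 GC boxes.

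All 3 RBFOX genes had fold changes above 0 in males and averaged, none past the threshold. Rbfox1 had 9758 to 11115 normalized counts in mutant libraries (median 10158) and 9454 to 10780 in wild-type libraries (median 9659), an averaged log2 fold change of 0.06 ± 0.04 (limma adjusted p = 0.687). Rbfox2 had 7921 to 8523 in mutant libraries and 7844 to 8414 in wild-type libraries, and Rbfox3 had 4944 to 5604 and 4715 to 5478, with fold changes of 0.01 and 0.03. In females 1 of 3 was above 0, and 0 of 3 with upper-quartile scaling, which put the median of all genes in females at -0.02. The MBNL genes, whose proteins promote adult splice forms, had 0.02 for Mbnl1 and 0.00 for Mbnl2. Mbnl2 had 6115 to 6664 normalized counts in mutant libraries and 6100 to 6592 in wild-type libraries, and with TMM scaling 1 of the 2 lay below 0. Ptbp1, the repressor of neuronal exons, had 0.19 ± 0.09 in females (limma adjusted p = 0.728) and -0.09 ± 0.09 in males (adjusted p = 0.787), and Ptbp2 had 0.01 averaged, with an interval of -0.05 to 0.08.

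CELF genes, whose proteins bind GU-rich elements, were above 0 in 6 of 6 cases in males, with a median log2 fold change of 0.08, and in 3 of 6 in females. Celf3 (chromosome 3, 94478295 to 94492198), restricted largely to neurons, had 5897, 5878 and 5778 normalized counts in mutant males, against 5496, 5391 and 5320 in wild-type males. For females the counts were 5530, 5404 and 5689 in mutants, against 5772, 5701 and 5737 in wild types. Mutant males lay above and mutant females below all wild-type libraries of their sex. The male fold change was 0.12 ± 0.03 (limma adjusted p = 0.407). DESeq2 gave it an adjusted p of 0.0495 in males, the only call on a regulator by any tool, where it called 35 genes in all, 0.891% of the 3928 with an adjusted p. DESeq2 gave such a value for 53 of the 73 regulators in males. Celf4 had 9746 to 10766 normalized counts in mutant libraries (median 10186) and 9175 to 10727 in wild-type libraries (median 9758), with an averaged log2 fold change of 0.06 ± 0.04.

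ELAVL genes were above 0 in 4 of 4 cases in males and 1 of 4 in females, or 0 of 4 with upper-quartile scaling. Elavl1 (chromosome 8, 4285382 to 4325413) had 2190, 2243 and 2211 normalized counts in mutant males, against 2102, 2166 and 2156 in wild-type males. In females it had 2137, 2009 and 2139 in mutants, against 2244, 2188 and 2268 in wild types. As for Celf3, mutant males lay wholly above and mutant females wholly below wild types of their sex, which held for 2 of the 73 regulators and for 0.32% of all genes. Elavl2, a neuronal member, had 2727, 2443 and 2495 in mutant males, against 2313, 2225 and 2358 in wild-type males. Among females it had 2339, 2402 and 2220 in mutants, against 2415, 2188 and 2709 in wild types, which overlapped. Elavl3 had 5889 to 6537 normalized counts in mutant libraries and 5925 to 6864 in wild-type libraries, and Elavl4 had 1242 to 1534 and 1175 to 1663. Elavl3 and Elavl4 had averaged fold changes of -0.01 and 0.04, with intervals of -0.08 to 0.07 and -0.15 to 0.22.

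**Figure D4:**
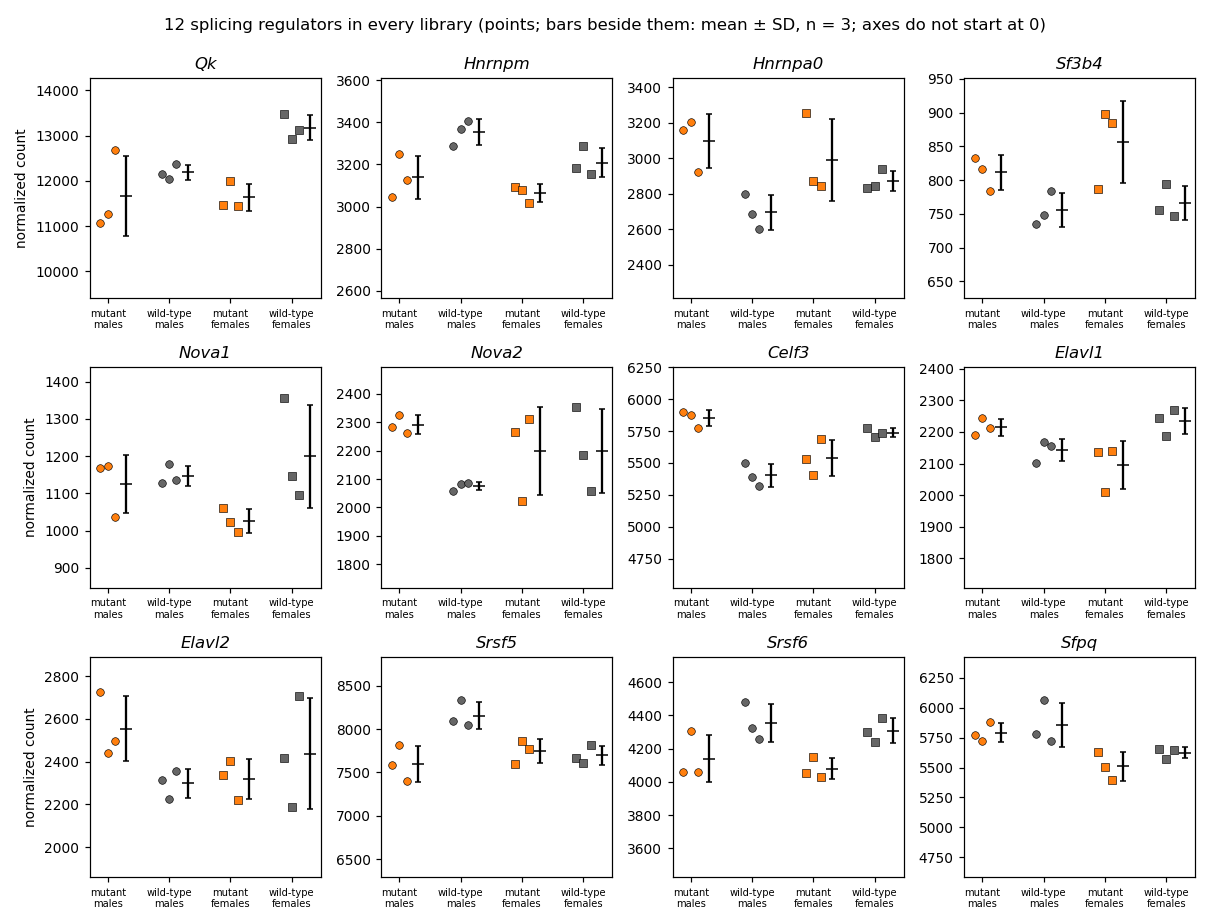
Normalized counts of 12 splicing regulators in every library, in mutant males, wild-type males, mutant females and wild-type females. Bars beside the points are means ± SD (n = 3), and the axes do not start at 0. Mutants of both sexes lie low for Hnrnpm, Celf3 and Elavl1 go opposite ways in the sexes, and males lie above females for Sfpq.

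Within males, limma called 0 of the 73 regulators and 0 of all genes (0%), as edgeR did. At an unadjusted p under 0.05 there were 8, of which 5 were higher (Hnrnpa0, Hnrnpab, Celf3, Elavl2 and Nova2) and 3 lower (Srsf5, Hnrnpf and Hnrnpm), where 10.3% of all genes passed, 4.1% higher and 6.23% lower. In all, 42 had a fold change above 0 and 31 below, against 50.6% and 49.4% of all genes, and 51 and 22 with upper-quartile scaling. That scaling moved all genes the same way, to a median of 0.02. Mutant males lay wholly above wild-type males for 11 regulators, where 8.37% of all genes did, and wholly below for 4, where 7.68% did. The 11 were Celf1, Celf2, Celf3, Celf4, Elavl1, Elavl2, Nova2, Ptbp2, Hnrnpa0, Hnrnpab and Hnrnpu. Markers of pyramidal neurons were above 0 in males in 5 of 5 cases, with a median of 0.15. They summed to 143952 to 156640 normalized counts in mutant males and 131634 to 139866 in wild-type males. Astrocyte and inhibitory neuron markers were above 0 in 5 of 6 cases each, with medians of 0.08 and 0.02. Microglia markers were above 0 in 4 of 5, with a median of 0.05. Markers of myelinating oligodendrocytes (8 of 8) and ependyma (4 of 4) were below 0, with medians of -0.26 and -0.70. Choroid plexus markers were below 0 in 8 of 8 cases, with a median of -3.48, and summed to 955 to 155677 in mutant males and 140453 to 170112 in wild-type males. The part of any of these marker lists in the regulators' values was not tested. Leaving out the 3 low libraries, which leaves 1 mutant male that is assumed to vary like the other groups, kept 6 of 6 CELF genes above 0 but 2 of 4 ELAVL genes, and the regulators' median was -0.00 without them and 0.02 with all libraries.

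Within females, limma and edgeR called 0 of the 73 and DESeq2 also 0, where limma called 0 of all genes (0%). At an unadjusted p under 0.05 there were 5, with Sf3b4 higher and Qk, Nova1, Elavl1 and Srsf6 lower, where 6.9% of all genes passed, 3.82% higher and 3.07% lower. In all, 33 had a fold change above 0 and 40 below, against 50.5% and 49.5% of all genes, and 16 and 57 with upper-quartile scaling. That scaling moved all genes the same way, to a median of -0.02. Mutant females lay wholly above wild-type females for Ptbp1, Sf3b5 and Hnrnpul2, where 5.14% of all genes did. They lay wholly below for Celf3, Elavl1, Nova1, Srsf6, Qk and Hnrnpm, where 5.66% did.

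The difference between the genotype effects of males and females was tested for all genes, and limma and edgeR called 0 regulators and 0 genes (0%). DESeq2 called 0 regulators and 3 genes, or 0.0171%. At an unadjusted p under 0.05 there were 5 regulators, Celf3, Elavl1, Elavl2, Srsf5 and Ptbp1, where 7.85% of all genes passed, 2.44% with a larger and 5.41% with a smaller value in males. In all, 44 regulators lay above 0 and 29 below, against 51.6% and 48.4% of all genes, and 57 and 16 with upper-quartile scaling. That scaling moved all genes the same way, to a median of 0.05. Celf3 had 0.17 ± 0.04 and Elavl1 had 0.14 ± 0.05, both with a limma adjusted p of 0.619. Elavl2 had 0.22 ± 0.10 (limma adjusted p = 0.634), and 0.14 without wild-type female 3.

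Between the sexes, with both genotypes averaged, limma, edgeR and DESeq2 called 0 of the 73, while limma called 12 of all genes, or 0.0686%. At an unadjusted p under 0.05 there were 7, where 6.64% of all genes passed, 3.1% higher and 3.54% lower in males: Sfpq, Hnrnph1, Srsf1, Srsf3, Srsf10 and Tra2b were higher in males and Hnrnpdl was lower. The role classes lay on different sides of 0. All 13 SR protein genes had a value above 0 in males over females, with a median log2 fold change of 0.06, and 10 of 11 branch point and 3' splice site factors had one below 0, with a median of -0.03, where 47.7% of all genes lay above 0. Both counts were the same under either other scaling. Leaving out 1 library at a time gave 11 to 13 of the SR genes above 0 and 8 to 10 of the branch point factors below 0. Genes of a class share libraries, so the counts describe these 12 libraries. Markers of myelinating oligodendrocytes had values below 0 in 8 of 8 cases in the same comparison, with a median of -0.20, and their part was not tested.

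**Figure D5:**
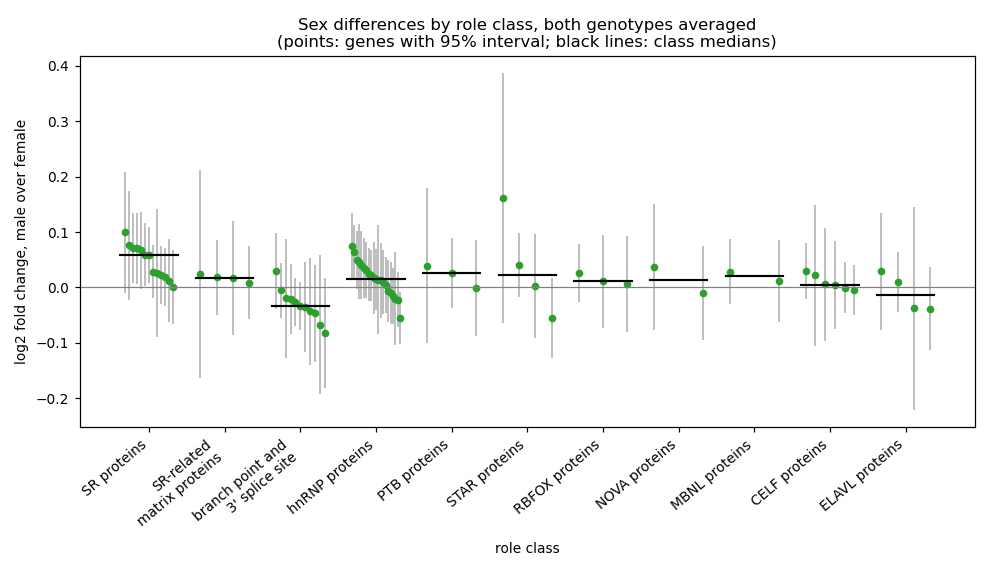
Log2 fold change, male over female, of the splicing regulators by role class, with both genotypes averaged. Points are genes with 95% intervals and black lines are class medians. The SR proteins lie at or above 0 (median 0.06) and the branch point and 3' splice site factors lie mostly below it (median -0.03), while most intervals cross 0.

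Sfpq (chromosome 4, 127021324 to 127037013), a paraspeckle protein that also acts in the splicing of long introns, was the only regulator whose sexes did not overlap, where 0.274% of all genes were wholly higher in males and 0.194% wholly lower. It had 5768, 5724 and 5879 normalized counts in mutant males, against 5630, 5501 and 5395 in mutant females. In wild types it had 5779, 6059 and 5719 in males, against 5652, 5569 and 5650 in females. The gap between the lowest male and the highest female library was small, and the log2 fold change was 0.06 ± 0.02 (limma adjusted p = 0.584). Tra2b, which pairs with Tra2a on the same enhancers, had 0.07. Sfpq, Hnrnph1, Hnrnpdl and Srsf1 were the 4 regulators with the smallest p in this comparison.

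Hnrnph1, whose protein binds G-rich runs, had 6955, 7086 and 6584 normalized counts in mutant males, against 6578, 6698 and 6643 in mutant females. Wild-type males had 6967, 7634 and 7089, against 6635, 6734 and 6871 in wild-type females. Only mutant male 3 lay among the females, and the log2 fold change was 0.07 ± 0.03 (limma adjusted p = 0.626). Srsf1, the founding SR protein, had 5009, 4997 and 4852 in mutant males, against 4758, 4842 and 4703 in mutant females. Wild-type males had 4916, 5273 and 5082, against 4847, 4819 and 4965 in wild-type females. Males were higher within mutants and overlapped females within wild types, and the log2 fold change was 0.06 ± 0.02 (limma adjusted p = 0.671). Hnrnpdl, a relative of Hnrnpd, had 6416, 6552 and 6330 in mutant males, against 6438, 6630 and 6464 in mutant females. Wild-type males had 6299, 6119 and 6395, against 6555, 6802 and 6699 in wild-type females. Wild-type males lay wholly below wild-type females and the mutants overlapped, and the log2 fold change was -0.05 ± 0.02 (limma adjusted p = 0.653).

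Other parts of the splicing machinery were followed in 6 further lists, and in the averaged comparison 0 of their genes were called by limma, edgeR or DESeq2. At an unadjusted p under 0.05 there were 3 of 39 core snRNP proteins, 0 of 36 factors of assembly and catalysis, 0 of 11 of the minor spliceosome, 1 of 21 exon junction and SR-related factors, 2 of 9 kinases of SR proteins and 4 of 50 other RNA-binding regulators, against 8.87% of all genes. Among the kinases, which phosphorylate the RS domains of SR proteins, Srpk3 had 212, 255 and 285 normalized counts in mutant males, against 298, 305 and 334 in wild-type males. Female libraries had 212, 317 and 252 in mutants, against 338, 344 and 340 in wild types. Each mutant library lay below the wild types of its sex, which held for 0.6% of all genes. The pooled genotypes overlapped, mutant female 2 with wild-type males. Srpk3 was named for its small p, and its averaged log2 fold change was -0.36 ± 0.10 (limma adjusted p = 0.337). Clk1, a nuclear kinase of the same proteins, had -0.09 (limma adjusted p = 0.491).

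The genes with the smallest unadjusted p in each other list are given here, which are not always those with the largest fold change. Among the core snRNP proteins they were Snrpb2 of the U2 particle, with 0.14 (limma adjusted p = 0.396), and Sart3, which recycles U4 and U6, with -0.07 (adjusted p = 0.491). Among the other RNA-binding regulators they were Rbm6 and Taf15, with -0.08 and -0.12 (limma adjusted p = 0.417 and 0.436). They were Pnn and Rsrc2 among the SR-related factors, with -0.06 and -0.05, and Sf1, the branch point binding protein, and Aqr among the assembly factors, with 0.05 and 0.06. In the minor spliceosome they were Snrnp48 and Armc7, with 0.07 and 0.09. List medians lay between -0.01 and 0.03, beside 0.01 for the 73 regulators. Rbm47, an epithelial RNA-binding gene singled out after its values were seen, had 18.2 and 14.1 normalized counts in mutant males 2 and 3 and 8.2 in wild-type female 1, the libraries low in choroid plexus markers, and 62.8 to 256 in the other 9.

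Many regulators are known to control their own messenger RNA through exons that trigger its decay. In GENCODE M21, 37 of the 73 genes, or 50.7%, had a transcript marked for nonsense-mediated decay, against 26.9% of the other protein-coding genes tested, and 54, or 74.0%, had one with a retained intron, against 55.5%. The median number of annotated transcripts was 8, against 5. Gene totals such as these add up productive and decaying transcripts, so a shift between them, and any change in exon use, was not measured here. Exons of 18 regulators overlapped those of another tested gene.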

How the data were processed

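RNA was sequenced from 12 hippocampus libraries made with a TruSeq kit that does not keep strand, per the labels' protocols. The tools named are Trimmomatic 0.35, TopHat2 2.1.0, HTSeq and DESeq2 with the build GRCm38, per the submitters' processing notes, which give no roles. Which annotation the submitters counted on is not stated in those notes. Each deposited value is a signal, the authors' count for a gene scaled by 1 factor for the library, as the numbers themselves show: all were whole multiples of a step of 0.807 to 1.13 within 1e-05 reads (100% in each library). The table held 0 columns of other samples. Symbols and coordinates are from GENCODE M21.

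Values were tested as log2(value + 1) for genes with a mean of at least 10, 17496 of 46078, with limma 3.58.1 and its trend option in R 4.3.3, with 1 mean per group and Benjamini-Hochberg adjustment over all tested genes at 0.05. Fold changes on this scale understate those of low genes. Scaling, pseudocount, filter, edgeR 4.0.16 and DESeq2 1.42.0 on the recovered reads (a count test on values that came out whole), a replicate block and omitted libraries were tried as alternatives. The fit was checked on simulated counts, with independent libraries and the same dispersion (spread beyond counting noise) for every gene. That check does not cover spread that differs between genes, or differences in choroid plexus markers, as in these libraries. No pair of libraries of the same group lay within sampling noise of each other (chi-square per degree of freedom 3.42 to 30.6). Pairs from different groups were not checked. Values in every library were given for the 10 regulators with the smallest p averaged over sexes and the 4 smallest in each other comparison, with ranges or levels for known tissue-restricted members and the extremes of each class. Of the other splicing lists, the 2 genes with the smallest p in the averaged comparison were named. The members, lists and rules were chosen with earlier results of these data known. The listed gene Cenatac was not matched, and 2 further listed regulators were not tested.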

Additional observations from a re-analysis of the deposited data

Results flagged for a closer look

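Celf3 and Elavl1 were singled out because the genotype difference ran in opposite directions in the sexes: for each, all 3 mutant males lay above all 3 wild-type males and all 3 mutant females lay below all 3 wild-type females. The difference between the male and the female effect was 0.166 for Celf3 and 0.141 for Elavl1 on the log2 scale. Tested directly with limma, neither passed, with an adjusted p of 0.619 for each, and over the alternatives the adjusted p ranged from 0.178 to 0.850 for Celf3 and from 0.325 to 0.850 for Elavl1. Without the 3 libraries low in choroid plexus markers the values were 0.172 and 0.121. Celf3 shares 74 and Elavl1 204 exonic bases with an antisense gene.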

How the results depend on the processing

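No regulator was called by limma under any alternative with this test, or by edgeR, and DESeq2 called 1, Celf3 in males. The 26 results picked for their small p, each a regulator in 1 comparison, were refitted under 23 alternatives, which gave 598 values. Of these, 597 kept their direction and their side of the threshold, 0 reversed, and that of Celf3 in males passed it with DESeq2. Because the results were picked by small p in the same data, this count cannot measure how stable they are. Among all genes, 1 was called in the averaged comparison, against 0 with no filter, 0 with upper-quartile scaling, 75 with DESeq2 and 82 without the 3 libraries low in choroid plexus markers. In males 0 were called, against 35 with DESeq2 and 12 without those 3 libraries. The same counts were 0, 11 and 1 in females, 0, 3 and 2 for the difference of genotype effects between the sexes, and 12, 48 and 34 between the sexes. Leaving out 1 library at a time gave 0 to 8 genes averaged, 0 to 1 in males, 0 to 1 in females, 0 to 1 for the difference and 11 to 18 between the sexes, with 0 regulators in each. The cause of these shifts was not tested.

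Upper-quartile scaling gave all genes a median log2 difference of 0.0218 in males, -0.0221 in females and 0.0485 for the difference. With that scaling the median of the regulators was 0.0377 in males, -0.0317 in females and 0.0626 for the difference. Without the 3 libraries it was -0.0010 in males, 0.0028 in females and -0.0014 for the difference. Adjusted for the choroid plexus score of each library it was 0.00039 averaged, -0.0030 in males, 0.0033 in females and -0.0039 for the difference. Leaving out 1 library at a time gave 0.00016 to 0.0146 averaged, 0.0052 to 0.0275 in males, -0.0175 to 0.0028 in females, 0.0075 to 0.0379 for the difference and 0.0060 to 0.0251 between the sexes.

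With the replicate number as a block, 0 genes were called in the averaged comparison and 16 between the sexes. Same-numbered libraries had residual correlations of -0.58 to 0.29, and differently numbered ones -0.39 to 0.59. For mutants and wild types of 1 sex, same-numbered libraries had 0.010 to 0.108. Ranges this wide, over libraries that differ in choroid plexus markers, cannot decide whether the numbers pair libraries. Every mutant library was shallower than every wild-type library, and each regulator had at least 154 reads in every library.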
